A study of Mus musculus with 2 samples.

Results

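The nuclear genes of the mitochondrial respiratory chain were examined for open chromatin at their promoters in the embryonic mouse hindbrain. They were chosen by symbol, as protein-coding nuclear genes beginning with Nduf, Uqcr, Cox4i, Cox5, Cox6, Cox7, Cox8 or Atp5, together with Sdha, Sdhb, Sdhc and Sdhd. The choice used no measured value and gave 94 gene records with 93 symbols among 21851 protein-coding genes. There were 38 genes named for complex I, 8 complex I assembly factors (Ndufaf1 to Ndufaf8), 4 genes of complex II, 8 of complex III, 18 of complex IV and 18 records of complex V, the ATP synthase. Atp5o stands in the annotation as a pair of overlapping records.

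The respiratory chain is a set of protein complexes in the inner mitochondrial membrane. Complexes I and II pass electrons from NADH and succinate to coenzyme Q, complex III passes them on to cytochrome c, and complex IV, cytochrome c oxidase, hands them to oxygen. Complex V uses the proton gradient so made to form ATP. Most subunits are encoded in the nucleus and made in nearly every cell, but several subunits of complex IV exist as a widely expressed form and as a form of heart and skeletal muscle, lung or testis. NRF1, ETS factors such as GABP, YY1 and the estrogen-related receptors (ERR) are textbook regulators of these nuclear genes.

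DNase-seq, which sequences the ends left where the nuclease DNase I cuts accessible DNA, was done on hindbrain of healthy B6NCrl mouse embryos at day 11.5. There was 1 group, made up of biological replicates 1 and 2, each from male and female embryos pooled together, with no treatment or altered genotype in the labels. The authors called peaks, each 150 bp wide, and wider hotspots in each library separately. Every peak carries a height, a whole number below 150 in the analysed lists, and its scaling is not given in the sources used. Heights are therefore given as the pair replicate 1 and replicate 2, and are ranked only within a library. With 2 libraries of 1 group no test across samples was possible, so all that follows is description. In bulk tissue, a site open in fewer cells and a site less open in each cell cannot be told apart.

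The libraries held 150176 and 194873 analysed peaks, and read depth is unknown because the files give no read counts. Of 10 hindbrain marker genes, 8 had a promoter peak in both libraries, while Hoxa2 and Hoxb2 had one in replicate 2 alone. All 6 pan-neural markers had one in both. Heart and skeletal muscle markers had a peak in both libraries in 1 of 8 genes (Actn2, 91 and 117), with Myh6 at 21 and Myog at 50 in replicate 2 alone. The testis and germ cell list had none in both of 7, with Ddx4 at 29 in replicate 2. None of 5 lung genes had a peak in either library. Of 3 brown fat genes, Ucp1 (32 and 36) and Cidea (39 and 71) had low peaks in both, and Dio2 had one of 23 in replicate 1 alone.

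A promoter peak, meaning a peak within 1 kb of any start of the gene, was present in both libraries at 89 of the 94 respiratory chain records (94.7%). The share over all protein-coding genes was 66.4%, and over 82 ribosomal protein genes, also widely expressed, it was 96.3%. No respiratory chain gene had a peak in 1 library alone. All 38 complex I genes, all 8 assembly factors, all 4 complex II genes and all 8 complex III genes had one. In complex IV 14 of 18 did, and in complex V 17 of 18. The exceptions were Cox6a2, Cox7b2, Cox8b and Cox8c, all tissue-restricted forms of complex IV subunits, and the second Atp5o record, a long transcript model that starts elsewhere than the Atp5o gene proper. The nearest peaks to the starts of these 5 lay 1909 bp (Cox6a2, both libraries), 2360 and 2120 bp (Cox7b2), 2870 bp (Cox8b, both), 10391 and 10451 bp (Cox8c) and 4234 and 4574 bp (second Atp5o record) away. The members whose highest peak in replicate 1 was centred farthest from a start while inside the 1 kb limit were Ndufa13 (887 bp) and Ndufa4l2 (764 bp).

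Where a peak was present it was mostly high. The median of the highest promoter peak was 111 and 130 over the 89 open members (quartiles 101 to 117 and 123 to 135, range 28 to 128 and 60 to 141). Over all genes with a promoter peak the medians were 100 and 126 (quartiles 73 to 114 and 106 to 134). In replicate 1, 67 of the 89 stood above the all-gene median, and in replicate 2, 58 of 89. All 89 had the larger number in replicate 2, as did 99.4% of all genes open in both libraries. The order of the members was similar in both libraries, with a Spearman's rho of 0.80 over 89 genes, against 0.89 over 14499 genes; genes of 1 library share its depth and processing, so these are descriptions.

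**Figure D1:**
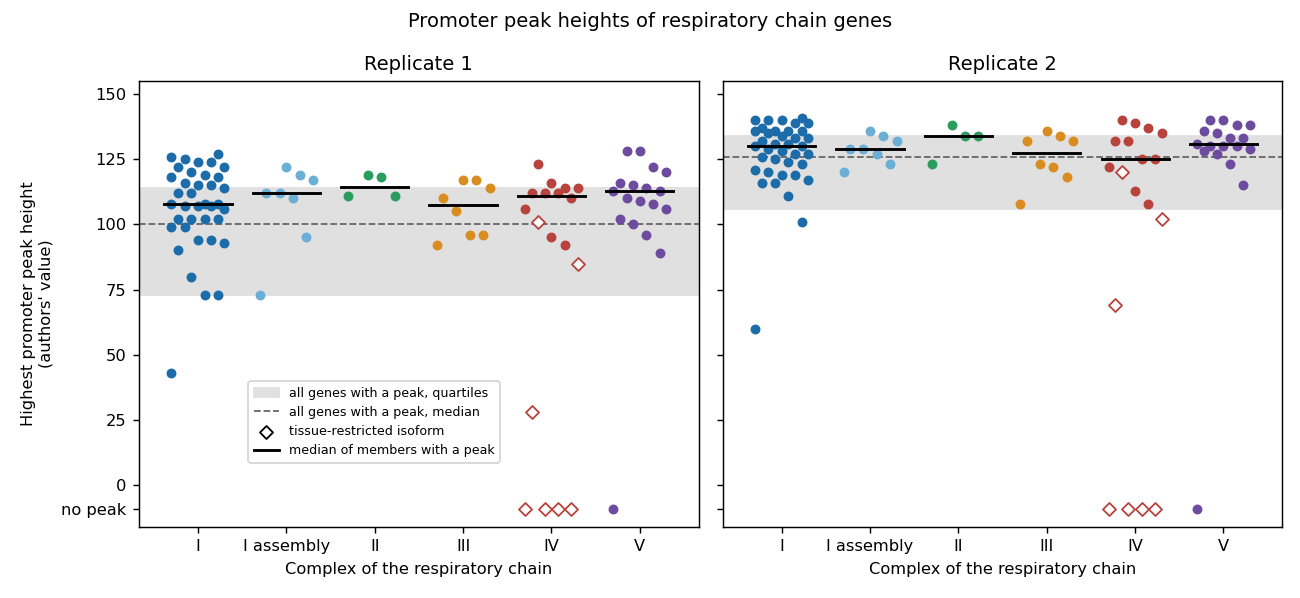
Height of the highest promoter peak (authors' value, vertical axis) of each respiratory chain gene, by complex, in replicate 1 (left) and replicate 2 (right). Each point is a gene, open diamonds are tissue-restricted isoforms, black bars are medians of members with a peak, and the grey band and dashed line are the quartiles and median of all genes with a peak. Most members lie inside the band or above it, with 67 of 89 above the dashed line in replicate 1 and 58 of 89 in replicate 2, while 4 tissue-restricted isoforms of complex IV and 1 record of complex V have no peak.

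The sharpest contrast within the chain was between paired isoforms of the same subunit. All 6 widely expressed complex IV isoforms had a promoter peak in both libraries, and so did 3 of the 7 tissue-restricted ones. Over all protein-coding genes the share was 66.4%. The median height was 113 and 133.5 for the widely expressed isoforms, and 85 and 102 for the 3 open restricted genes. COX4, the subunit through which ATP and ADP act on the enzyme, showed 112 and 137 at the widely expressed Cox4i1. That peak was centred 51 bp before the Cox4i1 start and lay nearer to the start of its neighbour Emc8. The lung form Cox4i2 had 28 and 69, from a peak centred 42 bp before the start in both libraries (chr2:152754056-152754205, mm10). Cox4i2 thus had the lowest value of any open member in replicate 1, and only Ndufa4l2 was lower in replicate 2.

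The subunit VIa gene Cox6a1 had a peak of 123 and 135, while Cox6a2, its heart and skeletal muscle form, had none. Cox8a, the widely expressed subunit VIII gene, stood at 114 and 132, with no peak at Cox8b of heart, muscle and brown fat or at Cox8c of testis. X-linked Cox7b had 92 and 108, and the testis form Cox7b2 had none. In these 3 sets the restricted gene was without a promoter peak in both libraries.

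The other 2 pairs differed less. Cox7a2 had 116 and 139, and its heart and skeletal muscle form Cox7a1 had 85 and 102, from a single peak over the start (chr7:30184056-30184205 in replicate 1). That peak was below the all-gene median in both libraries, yet higher than any heart and skeletal muscle marker except Actn2. For subunit VIb, the testis form Cox6b2 (101 and 120) came within 5 and 2 height units of the widely expressed Cox6b1 (106 and 122). Cox6b2 had further peaks downstream of its start, the next highest at 81 and 96, whereas Cox6b1 had 1 peak in each library. The testis markers, measured the same way, had no peak in either library in 6 of 7 genes.

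Ndufa4 belongs to complex IV although it was named for complex I, and its paralog Ndufa4l2 is induced at low oxygen. Ndufa4 had 99 and 123. Ndufa4l2 had 43 and 60, the lowest pair among the genes named for complex I, from an exonic peak centred 764 and 744 bp after the start, and no peak within 150 bp of the start. In replicate 2 alone it had 2 further peaks, of 54 and 40.

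**Figure D2:**
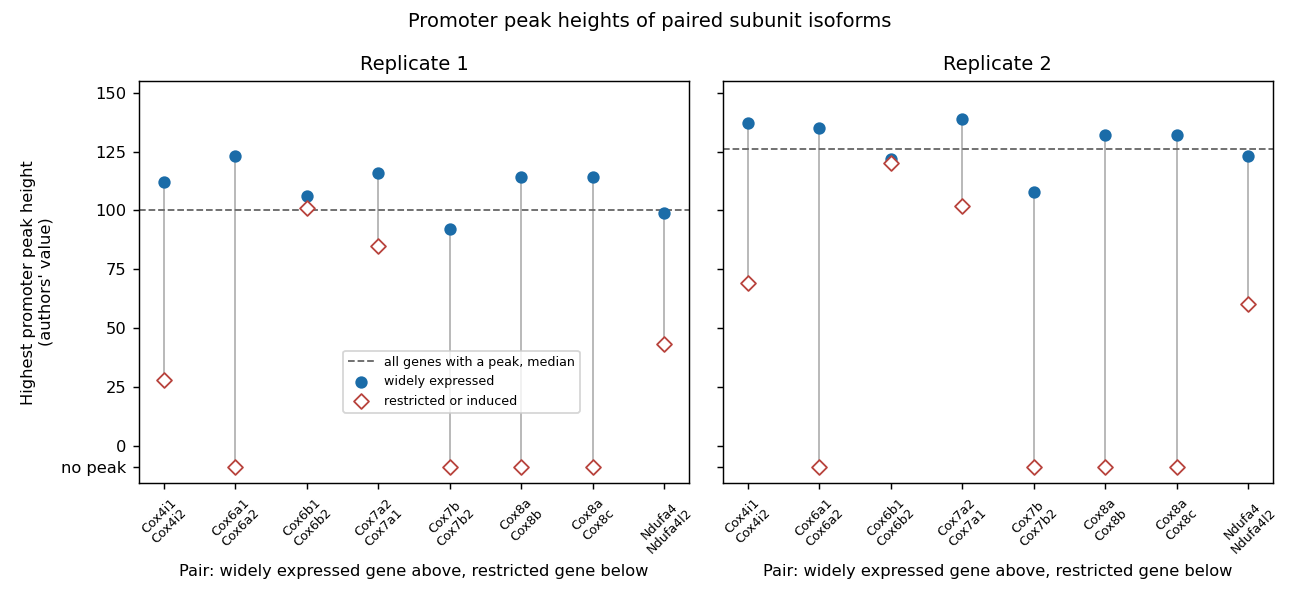
Height of the highest promoter peak (authors' value, vertical axis) for 8 pairings of a widely expressed subunit gene (filled circle) with a tissue-restricted or induced form (open diamond), in replicate 1 (left) and replicate 2 (right); the dashed line is the all-gene median. Cox6b2 sits next to Cox6b1, Cox7a1 and Cox4i2 sit below their partners, and Cox6a2, Cox7b2, Cox8b and Cox8c have no peak.

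The start regions of the pairs also differed in CpG dinucleotides, which are depleted from most of the mouse genome but kept in CpG islands. The following stretches of 120 bases, free of annotated exons and read toward the gene in mm10, lie just before the starts of 3 widely expressed genes and of their restricted partners. They are shown because they let the contrast be seen at the level of sequence, with CpG in capitals.
Cox8a (chr19:7217617-7217736, minus strand): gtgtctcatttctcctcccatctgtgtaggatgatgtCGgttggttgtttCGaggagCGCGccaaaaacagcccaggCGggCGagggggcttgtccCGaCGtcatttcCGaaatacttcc
Cox8b (chr7:140900447-140900566, minus strand): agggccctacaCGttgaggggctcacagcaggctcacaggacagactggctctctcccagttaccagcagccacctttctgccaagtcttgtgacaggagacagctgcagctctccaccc
Cox7a2 (chr9:79759879-79759998, minus strand): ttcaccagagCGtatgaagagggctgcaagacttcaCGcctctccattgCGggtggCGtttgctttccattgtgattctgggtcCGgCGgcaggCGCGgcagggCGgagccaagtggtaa
Cox7a1 (chr7:30184024-30184143, plus strand): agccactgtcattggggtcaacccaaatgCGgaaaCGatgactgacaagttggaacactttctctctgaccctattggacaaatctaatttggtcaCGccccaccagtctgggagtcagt
Cox7b (chrX:106015580-106015699, plus strand): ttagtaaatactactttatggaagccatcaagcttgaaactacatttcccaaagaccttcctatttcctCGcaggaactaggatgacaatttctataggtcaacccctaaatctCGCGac
Cox7b2 (chr5:71548206-71548325, minus strand): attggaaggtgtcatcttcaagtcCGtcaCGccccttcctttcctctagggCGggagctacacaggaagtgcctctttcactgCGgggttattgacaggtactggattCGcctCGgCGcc

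Cox8a held 9 CpG in this stretch and Cox8b 1, at 55.8% and 60% G or C. Cox7a2 held 9 and Cox7a1 3. The subunit VIIb pair ran the other way, with 3 CpG before the open gene Cox7b and 7 before Cox7b2, which had no peak. CpG content and openness therefore did not go together in every pair.

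Measured over 1 kb centred on the starts, the ratio of observed to expected CpG had a median of 0.71 in the respiratory chain genes and 0.54 in all genes. It was 0.27 in the 7 tissue-restricted isoforms and 0.79 in the 6 widely expressed ones. Split at a ratio of 0.5, a limit chosen after the values were seen, all 81 members at or above it had a promoter peak in both libraries, where the share over all such genes was 97.3%. Below it 8 of 13 members had one (61.5%), against 30.9% of all such genes. All 7 restricted isoforms, Ndufa4l2, Cox7b, the second Atp5o record and the complex V genes Atp5f1, Atp5g2 and Atp5j2 made up the 13. Of the restricted isoforms 42.9% had a peak in both libraries, beside the 30.9% of all genes below 0.5. The widely expressed isoforms other than Cox7b lay above 0.5, where 97.3% of all genes were open. Within the quartiles of the members' ratio, 97.3% of all genes were open with median heights of 104 and 129, where the members there had 110.5 and 130. At a ratio of 0.5 or more, the share of open promoters among respiratory chain genes was thus near that of all such genes. Below 0.5 it was higher over the 13 members together, but the members lay less often under 0.3 (6 of 13) than all such genes (6808 of 10183). From 0.3 to 0.5 the shares were close, with 5 of 7 members (71.4%) against 69.6% of all genes. Under 0.3 a peak was present at 3 of 6 members (50%) against 11.8% of all genes. Across the open members, height and CpG ratio had a Spearman's rho of 0.24 and 0.21 (89 genes), against 0.44 and 0.51 over all open genes.

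**Figure D3:**
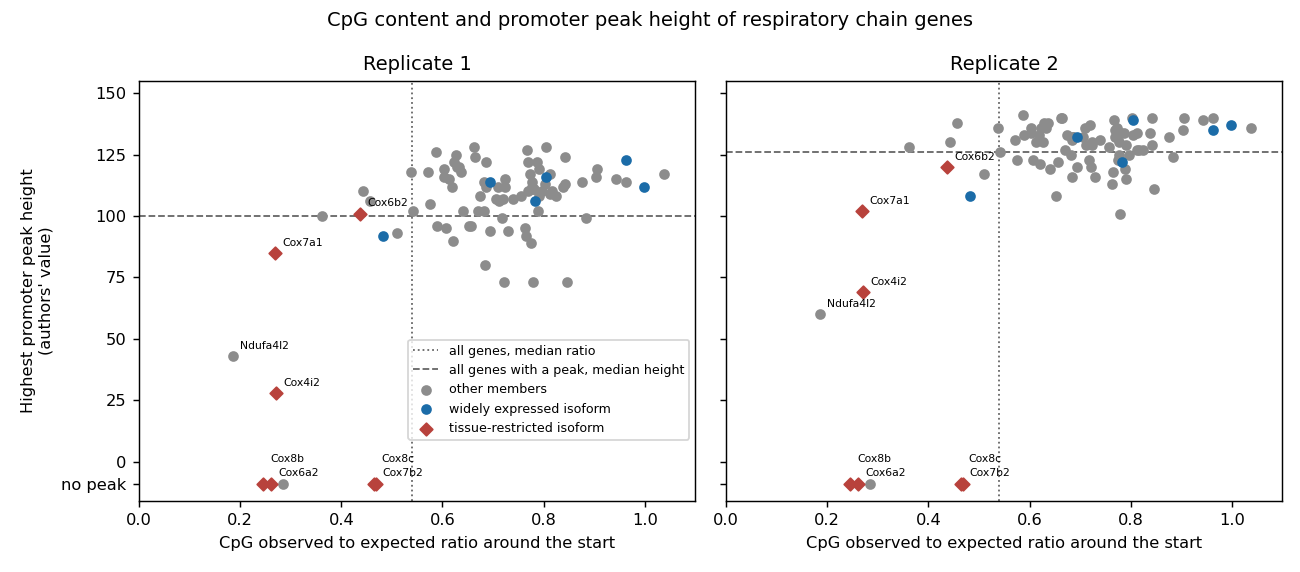
Height of the highest promoter peak (authors' value, vertical axis) against the CpG observed to expected ratio around the start (horizontal axis) for the respiratory chain genes in replicate 1 (left) and replicate 2 (right), with members without a peak on the lowest line. Tissue-restricted isoforms (red diamonds) all lie below a ratio of 0.5, and every member at or above 0.5 has a peak.

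Among the complex I genes, the highest promoters by mean rank were Ndufb5 (126 and 141) and Ndufab1 (127 and 139), the latter encoding the mitochondrial acyl carrier protein. They were followed by Ndufa2 and Ndufa6, which encode accessory subunits and stood level at 124 and 140. Of the subunits that carry the electron path, Ndufv1, which binds NADH and flavin, had 122 and 134, and Ndufs1, an iron-sulfur subunit, 108 and 127. After Ndufa4l2, the lowest were the X-linked genes Ndufb11 (73 and 101) and Ndufa1 (73 and 111). The third X-linked member, Cox7b, was low as well, and none of the 3 passed the all-gene median in either library. X-linked genes with a peak had medians of 75 and 105, and autosomal genes 101 and 127. Ndufb11 and Ndufa1 were thus near other genes of their chromosome. Cox7b, at 92 in replicate 1, was just above the X-linked upper quartile of 91. In replicate 2, at 108, it was inside the X-linked quartiles of 81 to 118.

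Among the assembly factors, Ndufaf7, an arginine methyltransferase, stood at 117 and 136, Ndufaf3 at 122 and 132, and Ndufaf8 at 112 and 134. The lowest were Ndufaf6 (95 and 123) and Ndufaf1 (73 and 120). Ndufaf1 ranked low in replicate 1 in particular.

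Complex II, which is also the succinate dehydrogenase of the citric acid cycle, ranged from 111 to 119 in replicate 1 and from 123 to 138 in replicate 2. Among all genes with a peak, these heights spanned percentiles 69.6 to 86.6 and 44.2 to 87.5. The iron-sulfur subunit gene Sdhb had 118 and 138, the membrane anchor gene Sdhc 119 and 134, the flavoprotein gene Sdha 111 and 134, and the other anchor gene Sdhd 111 and 123. All 4 were above the all-gene median in replicate 1 and 3 of 4 were in replicate 2.

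In complex III, the Rieske iron-sulfur protein gene Uqcrfs1 led with 117 and 136, followed by the hinge protein gene Uqcrh (117 and 134) and Uqcrq (114 and 132). The Uqcrh peak lay nearest to the start of its neighbour Lrrc41, and the peak at its own start was 106 and 121, below Uqcrq and Uqcrc2. Uqcr10 (92 and 118) and Uqcrb (96 and 108), which encode small subunits, were lowest. The core protein genes lay between them, Uqcrc2 at 110 and 132 and Uqcrc1 at 96 and 122.

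In complex IV, Cox6a1, Cox7a2 and Cox5a (114 and 140) were highest. Cox7a2l, whose product links complexes III and IV in supercomplexes, had 112 and 132. Cox6c, at 95 and 113, was the lowest autosomal gene of this complex outside the tissue-restricted forms.

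In complex V, the genes Atp5d, for the delta subunit of the rotating stalk, and Atp5b, for the catalytic beta subunit, stood at 128 and 140 and at 128 and 133. Atp5h, for a subunit of the peripheral stalk, had 120 and 138, and Atp5s, for coupling factor B, 122 and 135. The 3 genes for the identical c subunit of the membrane ring, Atp5g1, Atp5g2 and Atp5g3, had 116 and 136, 110 and 130, and 109 and 127. Lowest were Atp5a1, for the alpha subunit (89 and 123), and Atp5l (108 and 115). Alpha and beta subunits, made in equal number in the enzyme, thus had promoter peaks of different rank.

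The highest peak lay close to the start. Its centre was a median of 25 bp before the start in replicate 1 and 19 bp before it in replicate 2, where all genes had 38 and 25 bp. It was within 150 bp of a start in 78 of 89 members (87.6%) and 76 of 89 (85.4%), and in 73.3% and 72.7% of all genes with a peak. Among ribosomal protein genes with a peak the share was 92.4% in both libraries. The highest peaks sat at the same place within 40 bp in both libraries in 76 of 89 members, or 85.4%, and in 77.2% of all genes. In replicate 1, 53 of the 89 peaks were centred outside exons and protein-coding genes, 32 in an exon and 4 in an intron of a protein-coding gene. In replicate 2 the counts were 47, 39 and 3. These places were not counted over all genes, so they mark no trait of the members. A lone peak in the promoter windows was found in 27 of 89 members in replicate 1 and 37 of 89 in replicate 2, where 20% and 22.2% of all genes with a peak had just 1.

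**Figure D4:**
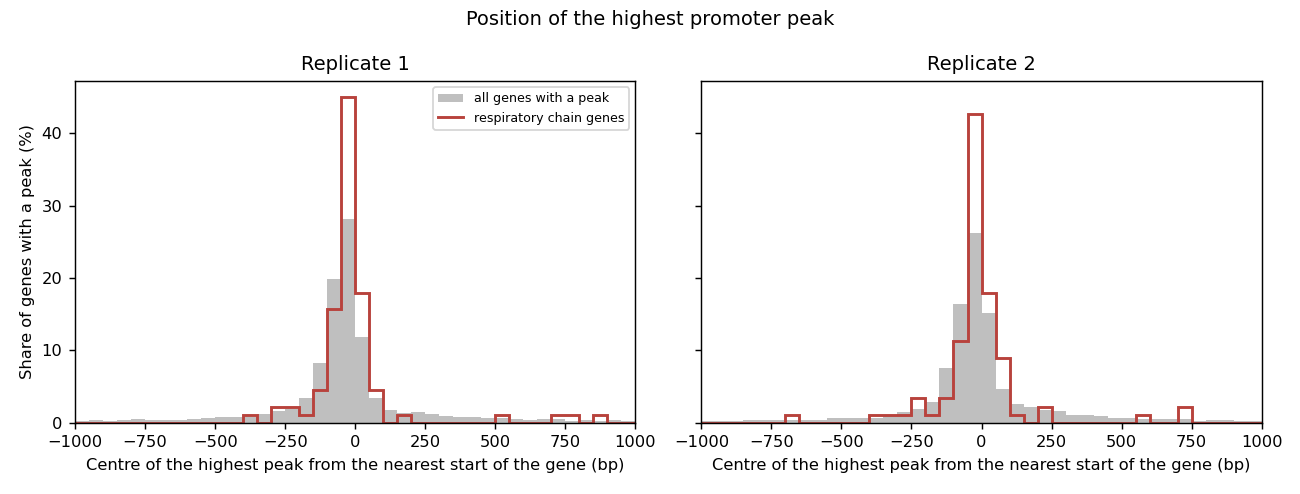
Share of genes (%, vertical axis) by distance of the centre of the highest promoter peak from the nearest start of the gene (bp, horizontal axis, negative before the start, bins of 50 bp) in replicate 1 (left) and replicate 2 (right). Respiratory chain genes (red line) have a narrow maximum just before the start, with 87.6% and 85.4% within 150 bp, and all genes with a peak (grey) are more spread out.

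Hotspots over the starts of the members were narrow. The start lay in a hotspot in 85 and 87 of 94 records, beside 61.3% and 65.8% of all genes, with a median width of 837 and 1347 bp where all genes had 980 and 1650 bp. A hotspot over 2 kb held the start of 1 record in replicate 1 and 11 in replicate 2 (11.7%), and of 3.91% and 21.2% of all genes. Hotspots over the starts of ribosomal protein genes were narrower still, with medians of 815 and 1209 bp. Distal sites, meaning peaks of both libraries beyond 1 kb that were nearest to the gene's start and within 100 kb, averaged 1.76 per record against 2.52 per gene overall. No distal site was assigned to 41 of the 94 (43.6%), so 53 had at least 1, where the share over all genes was 63.7%. The most were at Cox7a2l (10) and at Cox6a1, Atp5g2, Ndufb4 and Ndufb9 (9 each). Hindbrain markers averaged 11.9, pan-neural markers 24 and ribosomal protein genes 1.87 such sites.

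Many respiratory chain genes shared their promoter with a neighbour that runs the opposite way. A head-to-head partner, meaning a protein-coding gene on the other strand with its start within 1 kb and directed away, was found for 27 of 94 records (28.7%), against 9% of all genes. Among genes with a peak in both libraries the shares were 30.3% (27 of 89) and 13%. At a CpG ratio of 0.5 or more they were 33.3% and 14.8%. Most of these starts were close together, 25 of 27 within 200 bp (92.6%) where 66% of all such genes were, and the median distance was 85 bp against 131 bp. Complex I had 11 such genes, the assembly factors 4 of 8, complex II 3 of 4, complex III 3 of 8, complex V 5 and complex IV 1, Cox4i1, whose partner was Emc8.

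Several partners serve gene expression or mitochondria. Ndufa7 faced the ribosomal protein gene Rps28 at 10 bp, Ndufs1 the translation factor gene Eef1b2 at 3 bp, Ndufs6 the mitochondrial ribosomal protein gene Mrpl36 at 51 bp, and Sdhd the mitochondrial import gene Timm8b at 98 bp. Ndufaf2 faced the DNA repair gene Ercc8 at 115 bp, and Atp5j faced Gabpa, which encodes the DNA-binding part of GABP, at 686 bp. These partners were named after their values were seen. Members with a partner had median heights of 112 and 129 and those without 110 and 130.5, so height hardly differed. Median hotspot width was 949 and 1607 bp with a partner and 824 and 1295.5 bp without.

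The whole stretch between the facing starts is printed here for the complex II anchor gene Sdhd and for the assembly factor gene Ndufaf2, read toward the respiratory chain gene in mm10, because the open site there lies within 1 kb of both starts. Capitals mark matches on either strand to the ETS core CCGGAA, the SP motif GGGCGG and the CCAAT box.
Sdhd and Timm8b (chr9:50603813-50603909, minus strand): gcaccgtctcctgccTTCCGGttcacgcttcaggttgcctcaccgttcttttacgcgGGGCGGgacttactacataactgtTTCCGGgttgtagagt
Ndufaf2 and Ercc8 (chr13:108158624-108158730, minus strand): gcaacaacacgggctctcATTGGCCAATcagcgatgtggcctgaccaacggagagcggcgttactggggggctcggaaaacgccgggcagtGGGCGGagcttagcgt
The 97 bases at Sdhd held 2 ETS cores and 1 SP match, and the 107 at Ndufaf2 a pair of CCAAT boxes and 1 SP match. A match is a description of letters and not a shown site of binding.

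For some members the highest peak in the window was nearer to a neighbour's start than to their own, in 12 of 89 and 11 of 89 (8.01% and 7.99% of all genes with a peak). Ndufa13, an accessory subunit gene, had its high peaks centred 887 bp after (115) and at -733 bp from (109) its start in replicate 1, and just 1 peak of 38 near the start itself. At Atp5f1, for the b subunit of the stalk, the high peak (106 and 138) lay 708 and 728 bp after the start and nearest to Wdr77. The highest peak at Atp5j, 113 and 140, was at the start of Gabpa, 532 and 552 bp after the nearest Atp5j start used here. It also covered a start given for Atp5j in RefSeq. The peak at the Atp5j starts used here was 68 and 116, and another, centred 192 bp after them, was 87 and 124. With a window of 150 bp, Atp5f1, Ndufa13, Ndufa4l2 and Ndufs4 had no peak in both libraries and 85 of 94 did. By the starts used here, the heights given for Ndufa13, Atp5f1, Atp5j and Uqcrh thus come from peaks nearer to their neighbours' starts. So does that of Ndufb11, whose highest peak was centred at -192 and -212 bp and nearest to Rbm10. The same held in both libraries for Ndufa1, Ndufs3, Sdhd, Cox4i1 and Atp5h, whose peaks were centred within 150 bp of their own starts. In replicate 1 alone it held for Ndufb3 and Ndufaf8, and in replicate 2 alone for Ndufs6.

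Motifs of the known regulators were searched as exact letters on both strands in the 150 bp of each gene's highest promoter peak. The NRF1 palindrome was in 7 of 89 members in both libraries (7.87%), against 1.55% and 1.19% of all genes with a peak and 1.63% and 1.42% of those within the members' CpG quartiles. The 7 were the same genes in both, and came from complexes I, III, IV and V and the assembly factors. They are printed because they carry the letters of the regulator best known for this pathway, with the match in capitals and 10 bases to each side, read toward the gene in mm10.
Ndufa11 (chr17:56717692-56717721, plus strand): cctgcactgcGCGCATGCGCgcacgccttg
Ndufaf4 (chr4:24897960-24897989, plus strand): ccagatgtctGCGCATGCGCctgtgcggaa
Ndufaf5 (chr2:140170652-140170681, plus strand): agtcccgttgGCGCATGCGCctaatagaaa
Uqcrc1 (chr9:108936668-108936697, plus strand): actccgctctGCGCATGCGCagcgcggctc
Cox6a1 (chr5:115349101-115349130, minus strand): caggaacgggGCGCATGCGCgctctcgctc
Atp5g2 (chr15:102671070-102671099, minus strand): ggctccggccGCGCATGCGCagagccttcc
Atp5k (chr5:108434430-108434459, minus strand): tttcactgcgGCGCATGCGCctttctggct
Their peak heights ran from Uqcrc1 (96 and 122), below the members' lower quartiles of 101 and 123, to Cox6a1 (123 and 135).

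The shorter NRF1 core TGCGCA, which overlaps the palindrome only where that is preceded by T or followed by A, was in 22.5% and 23.6% of members and 10.6% and 10% of all genes. ERR's AAGGTCA was in 5 members in replicate 1 (5.62%) and 4 in replicate 2 (4.49%), against 1% and 0.962%. It occurred at Atp5a1, Atp5g3, Atp5k and Uqcrq in both libraries and at Sdhd in replicate 1. The ETS core CCGGAA was in 29.2% and 25.8% of members, where all genes had 19.6% and 19.2% and those of like CpG content 23.3% in both. Its longer form CCGGAAGT, which contains the core, was in 6.74% and 4.49%, close to the 6.31% and 6.06% of all genes. Ribosomal protein genes, another large set of widely expressed genes, had the ETS core in 49.4% and 44.3%.

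The SP motif GGGCGG ran the other way, in 37.1% and 41.6% of members and in 54.9% and 55.5% of all genes. CREB's TGACGTCA (3.37% and 2.25% against 3.17% and 2.77%) and the E-box CANNTG (38.2% and 39.3% against 36.2% and 35.6%) were near the background. TATAAA was in Ndufa7 alone (1.12% against 2.2% and 2.04%). MEF2, a muscle factor whose motif was searched by name, had no match in members and 0.116% and 0.0857% over all genes. The CCAAT box, searched after the sequences were seen, was in 28.1% and 25.8% of members and in 29.2% and 25.8% of all genes. At least 1 of NRF1 core, ETS core and YY1 core was in 50 of 89 members (56.2%) and 52 of 89 (58.4%), against 33.5% and 33.2%.

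**Figure D5:**
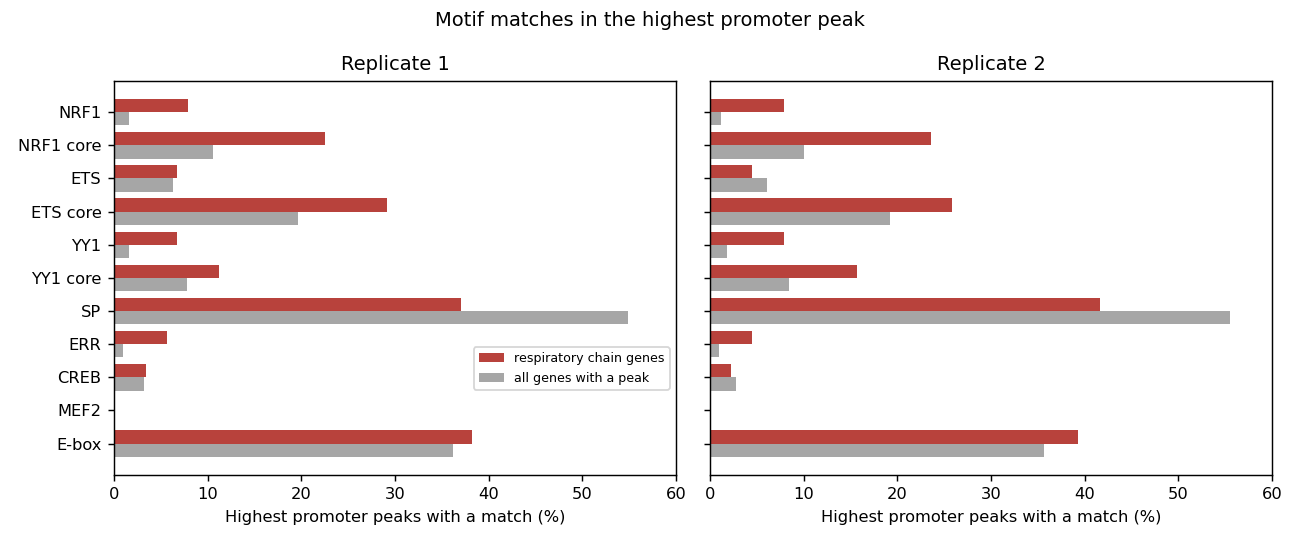
Share of highest promoter peaks of 150 bp that hold an exact match to a motif on either strand (%, horizontal axis) for respiratory chain genes (red) and all genes with a peak (grey), in replicate 1 (left) and replicate 2 (right). NRF1, its core, YY1 and ERR are more frequent in the members, SP is less frequent, and CREB and E-box are near the background.

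YY1's AAGATGGCG, which contains its core GATGGC, was in 6.74% and 7.87% of members against 1.59% and 1.83%. Its core, counted with or without the longer form, was in 11.2% and 15.7% against 7.8% and 8.43%. The core was in 10 and 14 members, and 6 and 7 of these held the longer form. In RefSeq promoter entries, which run from 250 bases before to 50 after a start in GRCm38.p6, AAGATGGCG was in 8 of 79 member entries (10.1%), against 1.92% of 20143. Of the 93 symbols 74 had an entry. Among those without were Atp5a1, Atp5f1, Atp5mpl, Atp5s, Cox4i1, Cox4i2, Cox6a2, Cox6c, Cox8c, Ndufa2, Ndufa4l2, Ndufaf6, Ndufb9, Ndufs1, Sdhc, Uqcrb, Uqcrc2 and Uqcrq. The 8 matches are printed because of where they lie, with the motif in capitals and up to 10 bases to each side, read toward the gene.
Ndufa9 (chr6:126849097-126849125, minus strand): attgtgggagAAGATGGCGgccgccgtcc
Ndufc1 (chr3:51408915-51408943, minus strand): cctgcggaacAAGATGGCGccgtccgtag
Ndufs4 (chr13:114388045-114388069, minus strand): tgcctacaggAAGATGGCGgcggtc
Ndufs6 (chr13:73328433-73328459, minus strand): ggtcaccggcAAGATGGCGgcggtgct
Ndufs7 (chr10:80249463-80249491, plus strand): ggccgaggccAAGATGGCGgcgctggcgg
Ndufaf8 (chr11:120098934-120098962, plus strand): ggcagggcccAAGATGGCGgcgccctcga
Atp5j2 (chr5:145191500-145191528, minus strand): ccaggacttcAAGATGGCGtcactcggtg
Atp5j (chr16:84835046-84835074, minus strand): aagtgtaggaAAGATGGCGgagtcttagc
All 8 read in the direction of the gene, as did 74.8% of the 401 matches over all entries, and 7 of 8 lay after the start, against 57.6%. In 6 of the 8 the ATG inside the motif was an annotated start codon. Over all entries it was one in 141 of the 300 matches that read in the direction of the gene, or 35.2% of all 401. Matches on the other strand could not count. Ndufa9, Ndufc1, Ndufs4 and Atp5j2 also had the match inside the highest peak of both libraries, and Ndufs6 in replicate 2.

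The entries gave a similar picture for the other motifs. NRF1's palindrome was in 8.86% of member entries against 1.38%, its core in 24.1% against 9.95%, the ETS core in 35.4% against 19.2% and ERR in 10.1% against 3.97%. The longer ETS form, at 6.33% against 5.35%, was again near the background, and CREB had 5.06% against 2.31%, from 4 entries. The SP motif, at 43% against 47.7%, was less far apart here than in the peaks.

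Other genes of the pathway were open as well. All 22 regulators and genes of mitochondrial DNA expression had a promoter peak in both libraries, with median heights of 106.5 and 134.5. Among them were Nrf1 (105 and 140), Gabpa (113 and 140), Yy1 (128 and 141), the receptor gene Esrra (129 and 138) and Tfam, for the factor that packages mitochondrial DNA (111 and 138). The coactivator gene Ppargc1a, whose product PGC-1alpha raises mitochondrial content in muscle and brown fat, was low at 35 and 64, and only Mterf1a (25 and 43) was lower. All 14 citric acid cycle genes had a peak (112 and 130). The share with a peak in both libraries was 66.4% over all genes. It was 97.3% over genes with a CpG ratio of 0.5 or more. The median CpG ratio was 0.74 in the regulators and 0.77 in the citric acid cycle genes.

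Of 32 genes for cytochrome c, electron carriers and assembly factors outside the symbols used, 30 had one (109 and 130), the exceptions being the testis cytochrome c gene Cyct and Sdhaf1. Their share of 93.8%, at a median CpG ratio of 0.72, stood beside the same shares of 66.4% and 97.3%. Somatic cytochrome c, Cycs, had 123 and 139. Among other isoform pairs of energy metabolism, the testis forms Cyct, Pdha2, Pgk2, Slc25a31, Ldhc and Gapdhs had no peak, unlike Cox6b2. The heart and muscle form of the ATP carrier, Slc25a4, had a higher peak (118 and 141) than the widely expressed Slc25a5 (87 and 115). Mitochondrial creatine kinase of muscle, Ckmt2, had a peak of 26 in replicate 2 alone, and Ckmt1 had 39 and 78. Muscle enolase Eno3 had 53 and 89 beside 122 and 137 at Eno1. Restricted forms in energy metabolism thus ranged from no peak to one above the partner's.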

How the data were processed

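DNase-seq peaks and hotspots of 2 hindbrain libraries of 1 group were analysed, mapped by the authors to mm10 and called per replicate, per the file headers and labels. The sources used here do not give the aligner, caller, versions, filters or depth. Each deposited peak holds a signal value, its height. The deposited hotspots hold a −log10 false discovery rate, from 1.3 upward with strong ones written as 100. Repeated entries (32 and 60), scaffolds and the mitochondrial chromosome were left out. Starts came from protein-coding transcripts of the GENCODE M21 basic set (41438 starts), and sequence from GRCm38.p6, the same build as mm10. No peak passed a chromosome end.

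For each gene the highest peak within 1 kb of a start was taken, and counts, medians and ranks were set beside those of all genes. No test was made. Named were isoform pairs, members without a peak, the 3 highest and 2 lowest members of each complex by mean rank, the 5 with most distal sites, and up to 10 sharing a promoter; other names were chosen after their values were seen. The members, lists and motifs were chosen with earlier results of these data known. Some items are not reported here. Lookups were checked on simulated data. Python 3.11.15, numpy 2.4.6, pandas 2.3.3 and matplotlib 3.10.9 were used.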

Additional observations from a re-analysis of the deposited data

How the results depend on the processing

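The number of respiratory chain records with a promoter peak in both libraries ranged from 85 to 91 of 94 over 11 alternatives, beside 59.8% to 69.4% of all genes in the windows of 150 and 2500 bp. The window of 150 bp and the count without the second Atp5o record were chosen after seeing the data. Leaving out either library gave 89. A window of 500 bp gave 87, without Ndufa13 and Ndufa4l2, and 1 outermost start per gene gave 88, without Cox7a2l. The tissue-restricted isoforms with a peak numbered 3 of 7 in most alternatives. They were 5 in the window of 2500 bp, which took in the peaks nearest to Cox6a2 and Cox7b2, and 2 when only peaks at or above the library's median height counted, without Cox4i2. Leaving out either library gave 3. The widely expressed isoforms stayed at 6 of 6 in all 11. The median height of the members, recomputed under 6 of them, was 110 to 111 and 129.5 to 130. No paired analysis was possible because the libraries form 1 group. Unknown depth and height scaling, and 2 libraries, limit every comparison of heights.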
